A study of Mus musculus with 12 samples.

Results

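The rows described here are the primary miRNA rows and miRNA host gene rows of a total RNA table from cultured mouse neurons. A row was taken when its symbol began with Mir and a number, or with Mirlet7, and when its count summed over the 6 total RNA libraries was 10 or more. Members were thus chosen by name and by this summed count. The rule gave 227 of the 49489 rows of the table, out of 1116 rows with such a name. Of the others, 403 had a sum above 0 and under 10, and 486 were at 0. Among the 227 rows, 11 are host genes, long transcripts whose symbols end in hg, and 216 are named for a single hairpin. The sums chose the rows and are given as a description only. At the edge of the rule, 10 rows held exactly 10 counts (Mir1962 with 7 in antisense and 3 in sense libraries, for example), and 16 rows held 9 to under 10.

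Hippocampal neurons were prepared from P0 mice and cultured to day 16 in vitro (DIV 16), and RNA of a Gas5 pulldown was sequenced. Gas5 is a long noncoding RNA that carries small nucleolar RNAs in its introns. There were 12 libraries, in 4 groups of 3, since each of the 2 assays (total RNA and small RNA) had antisense and sense libraries. The sources used here give no mouse strain, genotype or treatment. They leave unsaid whether the capture is the antisense or the sense arm, and the groups are therefore called by these words. Nothing says that replicate libraries are separate cultures, so p-values reflect no more than the spread among these libraries, which may be technical.

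A miRNA gene is transcribed as a long primary transcript. Drosha and DGCR8 cut the hairpin out of it in the nucleus, exportin 5 carries the hairpin to the cytoplasm, and Dicer cuts it to the mature miRNA, which guides an Argonaute protein to its targets. Many hairpins lie in introns of protein-coding genes, and others in long noncoding transcripts called host genes. Bases 2 to 8 of the mature strand, the seed, carry most of the pairing to targets. In neurons, miR-124, miR-9, miR-128 and the let-7 family are well known and abundant. A count on a hairpin row of a total RNA library can come from the primary transcript or from any RNA that covers the hairpin.

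The mature sequences on which the small RNA results turn are shown first, 5′ to 3′, with the seed in capitals. They come from RefSeq (GRCm38.p6), in which 178 of the 227 rows have a hairpin. Of the 58 mature rows tested, 53 have a sequence there. These 53 have 47 seeds, of which 3 occur in more than 1 row. The 4 rows with the seed GAGGUAG belong to the let-7 family:
let-7a-5p: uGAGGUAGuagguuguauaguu
let-7c-5p: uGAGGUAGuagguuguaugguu
let-7e-5p: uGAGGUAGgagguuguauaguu
miR-98-5p: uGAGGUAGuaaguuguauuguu

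The 3 rows with the seed ACCCGUA include the miRNAs for which the top 2 host gene rows are named:
miR-99a-5p: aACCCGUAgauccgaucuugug
miR-99b-5p: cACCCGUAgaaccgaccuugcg
miR-100-5p: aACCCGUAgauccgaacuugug

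The other rows shown are both arms of miR-9, miR-125b-5p and miR-129-5p from hosts described below, and the remaining mature rows with an unadjusted p under 0.05:
miR-9-5p: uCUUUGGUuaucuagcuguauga
miR-9-3p: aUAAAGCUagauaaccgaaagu
miR-125b-5p: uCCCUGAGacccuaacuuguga
miR-129-5p: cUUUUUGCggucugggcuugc
miR-128-3p: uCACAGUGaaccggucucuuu
miR-29a-3p: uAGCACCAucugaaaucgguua
miR-365-3p: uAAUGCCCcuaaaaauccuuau
miR-744-5p: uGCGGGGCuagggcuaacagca

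Depth was 5775052 to 10424167 counts per total RNA library. Small RNA libraries had 3527528 to 4448328 counts, with 5.20% to 6.46% of them in miRNA rows. Gas5 took 9.71% to 14.2% of the antisense and 32.7% to 57.1% of the sense total RNA counts and fell by 2.78 on the log2 scale (SE 0.286, adjusted p = 3.77e-06, edgeR). The neuron markers, 6 of 6 detected, summed to 735 to 922 CPM (counts scaled to a common library size) in antisense and 926 to 1147 in sense libraries. The astrocyte markers, 4 of 4 detected, were at 770 to 969 and 877 to 1136 CPM, so glia were present too. The 3 oligodendrocyte markers summed to 122 to 164 CPM in antisense and 159 to 219 in sense libraries. The 4 endothelial and fibroblast markers were at 52.2 to 54.6 and 56.1 to 72.1 CPM. The 4 microglia markers summed to 15.3 to 19.2 CPM in antisense and 8.39 to 10.8 in sense libraries. Of the erythroid markers, Alas2 averaged 15.6 CPM in antisense libraries and 0 in sense, while Hbb-bs and Hba-a1, the haemoglobin genes that define red cells, reached at most 0.134 and 0.474 CPM in any library. In bulk RNA, fewer cells of a type and less RNA per cell cannot be told apart, and the part of these markers in the results below was not tested.

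Host gene rows carried most of the signal. The 11 host rows held 82.4% of the 37323 counts of all 227 rows, while the hairpin rows had a median sum of 18.7 counts, with 197 of 216 under 50 and 7 at 100 or more. Only 29 of the 227 rows had enough counts for the test, all 11 hosts and 18 hairpins, so 198 rows have counts and no test. The test was edgeR's quasi-likelihood F test over all genes, antisense minus sense, with Benjamini-Hochberg adjustment at 0.05. Of the 29, 3 were higher in antisense libraries, 0 were lower and 26 did not pass, and 7 had an unadjusted p under 0.05. Over all 20049 genes tested, 18.2% were higher and 4.35% lower. The groups did not overlap in 8 of the 29 rows (27.6%), against 36.6% of all genes tested. The median log2 fold change was −0.02 for hosts, 0.28 for tested hairpins and −0.01 for all genes. All of these changes are on TMM scaling, and on library totals alone the median of all genes moves to 0.69.

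Mir100hg was the most abundant of the rows. It spans chr9:41376526-41615185 on the plus strand (GRCm38.p6) and holds the hairpins of miR-100, let-7a-2 and miR-125b-1. Its level was 309.9, 322.9 and 332.4 CPM in antisense libraries and 308.2, 357.3 and 308.1 in sense ones. The groups overlapped, and the log2 fold change was −0.01 (SE 0.092, adjusted p = 0.944).

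Mir99ahg, on chr16:77329328-77558428 of the plus strand, is the related host named for miR-99a. Its level was 255.7, 283.3 and 270.1 CPM in antisense libraries and 237.2, 268.5 and 235.0 in sense ones. The groups overlapped here too (log2 fold change 0.13, SE 0.092, adjusted p = 0.369). The RefSeq span of Mir99ahg ends before the hairpins of miR-99a and let-7c-1.

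The hosts of 2 miRNAs known from neurons came next. Mir124a-1hg, named for miR-124, stood at 43.1, 39.9 and 35.1 CPM in antisense libraries and 43.3, 44.6 and 39.9 in sense ones (log2 fold change −0.11, SE 0.109, adjusted p = 0.514). A second host of miR-124, Mir124-2hg, averaged 10.6 ± 0.455 CPM in antisense libraries and 12 ± 2.99 in sense ones (SD, n = 3). Mir9-3hg, on chr7:79500026-79534403, stood at 36.0, 35.2 and 39.3 CPM against 39.2, 46.7 and 36.5 CPM (log2 fold change −0.15, SE 0.115, adjusted p = 0.402). None of the 3 passed, and antisense and sense libraries overlapped in each.

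Mir181a-1hg, Mir17hg, Mir22hg and Mir155hg did not pass either. Mir181a-1hg averaged 22.6 ± 1.56 CPM in antisense libraries and 22.9 ± 2.95 in sense ones. Mir17hg, the host of the miR-17-92 cluster known from proliferating cells, averaged 14.5 ± 2.0 and 15.5 ± 3.29 CPM. Mir22hg averaged 10.1 ± 1.51 and 10.1 ± 0.587 CPM. Mir155hg, the host of a miRNA known from immune cells, was the least abundant of the 4, at 1.75 ± 0.267 and 2.15 ± 0.163 CPM. Its groups did not overlap, by a margin under 0.01 CPM, and its adjusted p was 0.595.

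Mir670hg and Mir133a-1hg were the 2 host rows that passed. Mir670hg, a noncoding host on the minus strand at chr2:94160636-94265103, holds the hairpins of miR-670 and of miR-129-2, a miRNA known from brain. Its level was 17.4, 19.5 and 22.6 CPM in antisense libraries and 10.4, 16.0 and 9.25 in sense ones, a mean of 19.8 ± 2.66 against 11.9 ± 3.63. Every antisense library lay above every sense library, and the log2 fold change was 0.73 (SE 0.193, adjusted p = 0.0117). The adjusted p was 0.0577 without sense replicate 1 and 0.0670 without sense replicate 3, and 0.000777 without sense replicate 2, the highest of the sense libraries.

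Mir133a-1hg is named for a miRNA of skeletal and heart muscle and lies on chromosome 18 within the span of Mib1, a ubiquitin ligase of Notch signalling. It had 31, 31 and 24 counts in the antisense libraries and 0 in each sense library, and rose at least 23.3-fold (adjusted p = 9.67e-06) against a floor of 3 counts over the sense group. With 0 in sense libraries, the row met the rule and the filter for testing through its antisense counts alone. Its p-value is thus a description and gives no independent support for a difference. Mib1 itself was at 142 ± 12.4 CPM in antisense libraries and 169 ± 10.2 in sense ones and did not pass (log2 fold change −0.25, adjusted p = 0.0737). Mir1b, a hairpin inside the same host span, had 22 counts in antisense and 25 in sense libraries. The mature rows of muscle miRNAs, 5 of 5, were listed at 0 in the small RNA table, and the strand of Mir133a-1hg and of Mib1 was not in the sequence tables used here.

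**Figure D1:**
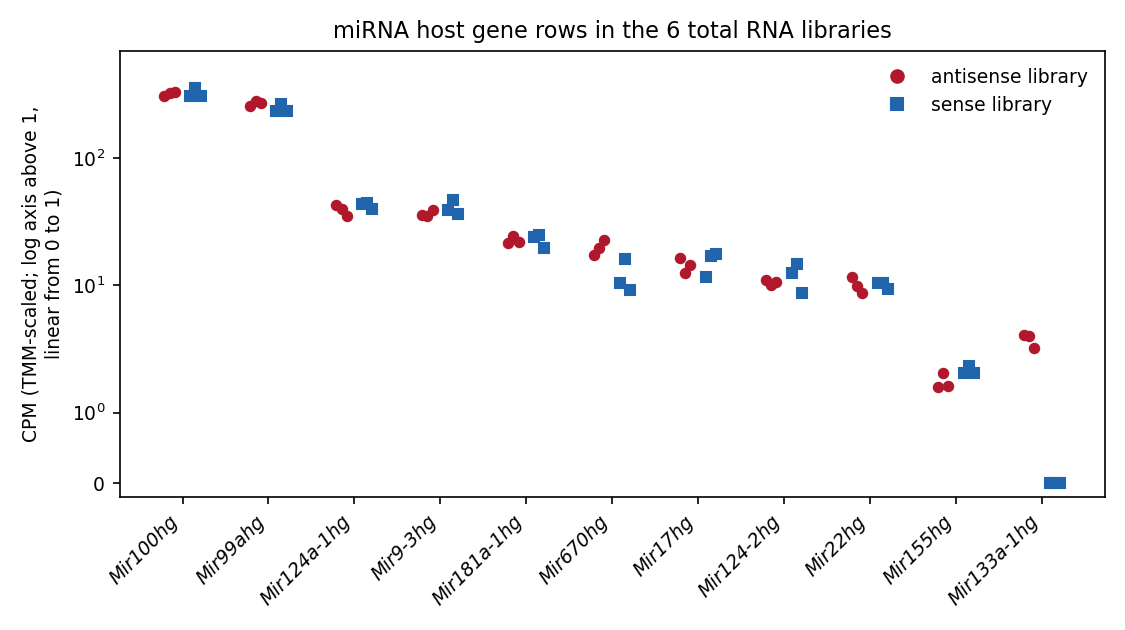
The plot shows the level in CPM (TMM-scaled; vertical axis logarithmic above 1 and linear from 0 to 1) of the 11 miRNA host gene rows in each of 3 antisense (circles) and 3 sense (squares) total RNA libraries. Mir133a-1hg is at 0 in all sense libraries, the 3 antisense points of Mir670hg lie above its 3 sense points, and the other hosts lie at like levels in both groups.

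The third row that passed was a hairpin. Mir3473f lies at chr1:106546496-106546631 on the minus strand, inside Bcl2, which encodes an inhibitor of apoptosis and has the same strand. The hairpin is shown with its mature arm in capitals, because it is the most counted hairpin row:
Mir3473f: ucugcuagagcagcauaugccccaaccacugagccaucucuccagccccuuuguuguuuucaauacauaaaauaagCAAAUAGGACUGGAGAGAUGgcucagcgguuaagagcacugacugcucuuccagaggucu

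The Mir3473f row was at 17.8, 19.9 and 28.3 CPM in antisense libraries and 8.38, 11.1 and 11.1 in sense ones. The groups did not overlap, and the row rose by 1.11 on the log2 scale (SE 0.194, adjusted p = 0.000439). Bcl2 was at 103 ± 3.99 CPM in antisense libraries and 112 ± 9.28 in sense ones and did not pass (log2 fold change −0.12, adjusted p = 0.408). The counts of Mir3473f are not whole numbers, which is how estimated counts look when reads were shared out between rows, so its level is uncertain. In all, 34 of the 227 rows had such counts.

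Another 4 hairpin rows had an unadjusted p under 0.05 and did not pass. Mir3069, inside the small nucleolar RNA host Snhg10, had 17, 15 and 13 counts in antisense and 21, 19 and 29 in sense libraries (log2 fold change −0.92, SE 0.330, adjusted p = 0.0609). Mir5098, inside Rest, a repressor of neuronal genes, had 32.3, 38.8 and 27.5 against 22.4, 8.80 and 9.42 estimated counts (log2 fold change 0.99, SE 0.361, adjusted p = 0.0652). Rest itself fell by 0.37 on TMM scaling (adjusted p = 0.0285). On library totals alone the median of all genes moves to 0.69, so the direction of such a fall depends on the scaling. In both hairpins the CPM of the 2 groups did not overlap.

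The other 2 were Mir466i, inside Cdk13, with a log2 fold change of 1.01 and an adjusted p of 0.0987, and Mir6236, in no longer gene. Cdk13, a kinase of transcription, itself rose by 0.49 (adjusted p = 0.000475), from 76.4 ± 2.53 CPM in sense to 107 ± 2.20 CPM in antisense libraries. Mir6236 had 11, 53 and 54 counts in antisense and 13, 3 and 23 in sense libraries, so the groups overlapped (log2 fold change 1.28, SE 0.577, adjusted p = 0.137). It passed without antisense replicate 1, the low antisense library (log2 fold change 1.72, adjusted p = 0.0191).

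The hairpins Mir9-1 and Mir3093 lie close together inside the noncoding gene Gm3764 on the plus strand of chromosome 3, and both were counted evenly. Mir9-1 (chr3:88215598-88215686) carries both arms of miR-9, and is shown with them in capitals:
Mir9-1: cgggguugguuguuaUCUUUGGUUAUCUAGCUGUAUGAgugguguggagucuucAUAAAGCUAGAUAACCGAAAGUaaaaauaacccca

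Mir9-1 had 14, 28 and 20 counts in antisense and 16, 19 and 17 in sense libraries (log2 fold change −0.05, SE 0.334, adjusted p = 0.942). Mir3093 had 37, 45 and 49 counts against 36, 34 and 51 (log2 fold change −0.19, SE 0.251, adjusted p = 0.653). Gm3764 itself was at 255 ± 15.0 CPM in antisense libraries and 297 ± 12.1 in sense ones (log2 fold change −0.22, adjusted p = 0.0919).

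Of the rows, 33 lie between Meg3 and the end of Mirg, in the imprinted Dlk1-Dio3 region of chromosome 12, known for a large miRNA cluster. They summed to 180, 180 and 119 counts in antisense and 146, 146 and 136 in sense libraries. None of the 33 was at 0 in all sense libraries, and the 2 tested, Mir1188 and Mir453, did not pass. The 9 rows of the repeated Mir466, Mir467 and Mir669 families summed to 87.4, 55.5 and 65.1 estimated counts in antisense and 32.0, 40.0 and 31.4 in sense libraries. Of these 9, 6 had counts shared out between rows, which near-identical copies would share, and 0 of the 2 tested passed.

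A set of 15 rows, Mir133a-1hg among them, had 0 counts in all 3 sense libraries, and 0 rows were at 0 in all 3 antisense libraries. Over all rows with a summed count of 10 or more, 6.83% were at 0 in all sense and 0.182% at 0 in all antisense libraries, and among rows with a sum of 10 to under 100 the first share was 17.5%. The count of 15 of 227 is thus near the share of all rows and below that of low-count rows, to which most hairpin rows belong. Besides Mir133a-1hg, the rows had antisense sums of 11 to 25. All but Mir599, with 0, 12 and 1, were counted in each of the 3 antisense libraries. The 21 mature rows of these 15 were at 0 in every small RNA library.

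Among hairpins of known strand, most at 0 in sense libraries lay opposite to the gene around them. RefSeq's sequence tables give a strand for many hairpins and for the gene whose span holds them, and 117 hairpin rows lie on the same strand as that gene, 9 on the opposite strand and 40 in no longer gene, while for 48 a strand is not in these tables. Of the 9 opposite-strand hairpins, 7 were at 0 in all sense libraries, against 1 of the 117 on the same strand and 0 of the 40 in no longer gene. Another 6 lie among the 48 without a known strand, so the division covers 8 of the 14 hairpins at 0. Summed, the 9 had 46, 34 and 50 counts in antisense and 1, 6 and 2 in sense libraries, a ratio of 11.7 after scaling. The 117 had 721, 782 and 777 against 487, 595 and 487, a ratio of 1.18. For the 40 the ratio was 1.13 and for the 48 it was 1.19. These classes were made after the counts were seen and carry no test, and a hairpin at 0 in sense libraries could enter only through its antisense counts.

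The hairpin rows with sums under 10, which the rule left out, showed a like division. There, 65 hairpins on the opposite strand had 22.0, 21.9 and 29.9 counts in antisense and 0, 1 and 0 in sense libraries, and 20 of the 21 with any count were at 0 in sense. At such low sums, 53 of 203 counted same-strand rows and 24 of 63 in no longer gene were at 0 in sense as well. The 393 on the same strand had 421 against 329 counts, a ratio of 1.04. Over all hairpin rows of any count the ratio was 16.6 for 74 on the opposite strand and 1.16 for 510 on the same strand. Every row of the table with a summed count of 10 or more was classed by overlap with a longer gene. Of the 2901 tested rows that overlap one on the opposite strand, 24.4% were higher in antisense libraries. The share was 6.88% of the 218 that overlap one on the same strand, and 9.65% of the 11211 that overlap none. Where a strand is not in these tables it was 22.1% of 3231, and for rows with no position 46.2% of 2448. The summed counts of all opposite-strand rows had a scaled ratio of 0.988, and the median log2 fold change of those tested was 0.03. These rows include abundant genes and both genes of an overlapping pair, so their ratio is not a like comparison for low-count hairpins. The labels do not state whether counting used strand, and the part of strand-specific counting in this division was not tested.

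**Figure D2:**
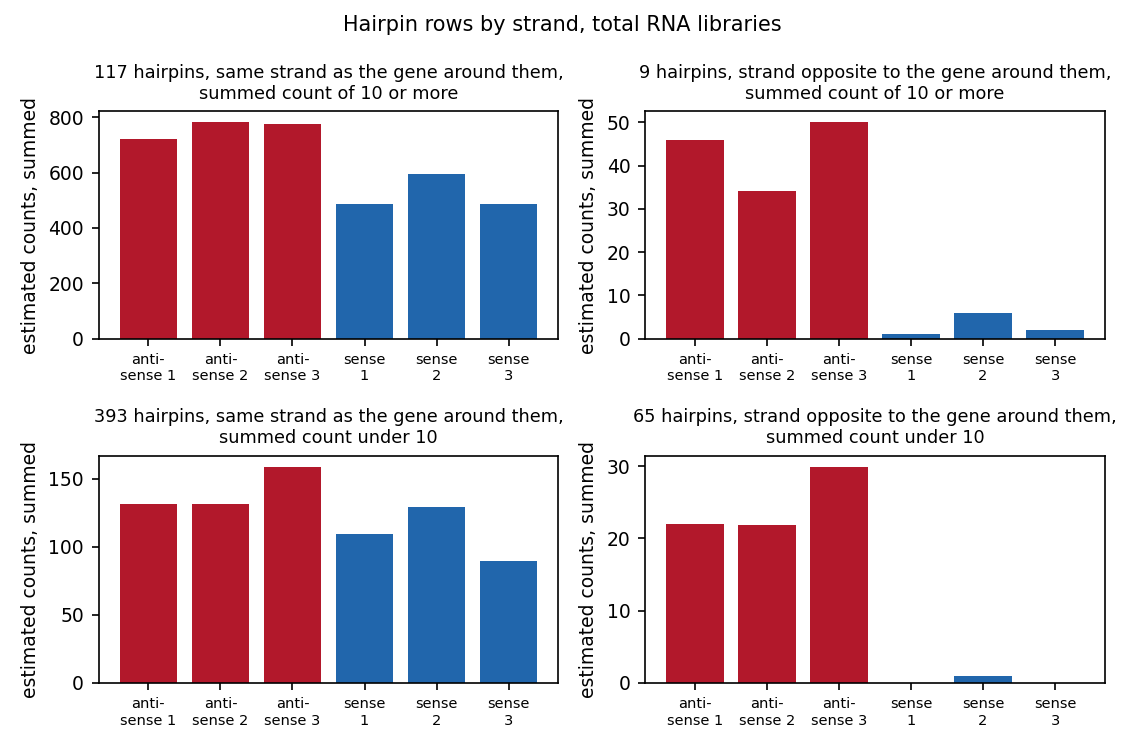
The bars show estimated counts, unscaled and summed over hairpin rows, in each of the 6 total RNA libraries (vertical axes start at 0 and differ between panels). Hairpins on the strand of the gene around them were counted in both groups, while those on the opposite strand had 9 sense counts against 130 antisense counts in the upper panel and 1 against 73.9 in the lower one.

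The opposite-strand hairpins with the most counts are shown with the mature arm in capitals. Mir378b is at chr11:88352773-88352864 (plus strand, inside Msi2), Mir1961 at chr5:92788451-92788562 (minus strand, inside Shroom3), and Mir496b, with a lower sum, at chr19:16314892-16315004 (minus strand, inside Gnaq):
Mir378b: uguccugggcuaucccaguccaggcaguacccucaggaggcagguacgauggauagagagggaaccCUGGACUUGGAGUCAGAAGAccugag
Mir1961: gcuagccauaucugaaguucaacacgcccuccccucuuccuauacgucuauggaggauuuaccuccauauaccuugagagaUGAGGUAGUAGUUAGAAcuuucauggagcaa
Mir496b: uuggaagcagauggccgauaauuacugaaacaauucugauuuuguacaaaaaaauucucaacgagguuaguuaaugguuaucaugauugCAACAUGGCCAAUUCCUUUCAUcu

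Mir378b had 7, 7 and 10 counts in antisense and 0 in each sense library, at least 6.50-fold higher. Msi2, an RNA-binding protein of neural progenitors, was at 149 ± 10.2 CPM in antisense libraries and 165 ± 4.14 in sense ones and did not pass (log2 fold change −0.15). The gene around the hairpin was thus counted in both groups and the hairpin in one.

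Mir1961 had 9, 6 and 6 counts in antisense and 0 in sense libraries, at least 5.69-fold higher. Shroom3, an actin regulator of cell shape, was at 182 ± 20.9 and 218 ± 9.34 CPM and did not pass (log2 fold change −0.26, adjusted p = 0.0754). The mature arm of Mir1961 has the let-7 seed GAGGUAG, and its mature row was at 0 in every small RNA library.

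Mir496b had 7, 2 and 4 counts against 0, at least 3.52-fold higher. Gnaq, a G protein subunit, was at 78.2 ± 6.73 and 82.0 ± 9.39 CPM (log2 fold change −0.07). Of the other opposite-strand rows, Mir6415 in Scarb2, Mir6419 in Nebl, Mir6362 in Dgkg and Mir6481 in Wars2 had 11 to 16 counts in antisense and 0 in sense libraries, and none of those genes passed. Mir5136, in Lbhd1, with 12 against 4 counts, and Mir219a-2, in Cercam, with 5 against 5, were the 2 rows of this class counted in sense libraries. The class leaves out Mir337, Mir493, Mir540, Mir665 and Mir673, inside Rtl1, because the strand of Rtl1 was not in the sequence tables used here. Rtl1 is described below as a gene whose opposite strand carries miRNAs. These rows had 9, 21, 9, 2 and 13 counts in antisense and 17, 7, 8, 8 and 9 in sense libraries.

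The one same-strand hairpin at 0 in sense libraries was Mir208a, with 3, 5 and 6 counts in antisense libraries, inside the heart myosin gene Myh6. Myh6 was itself at 16.7 ± 3.05 CPM in antisense libraries and at 0 in all sense libraries, so here hairpin and gene had the same pattern. Mir28b, with 6, 8 and 11 counts, and Mir6360, with 7, 3 and 7, complete the 5 rows at 0 in sense libraries with the highest sums. Mir6360 lies inside Mapre2, which did not pass, and their strands were not in the sequence tables used here.

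**Figure D3:**
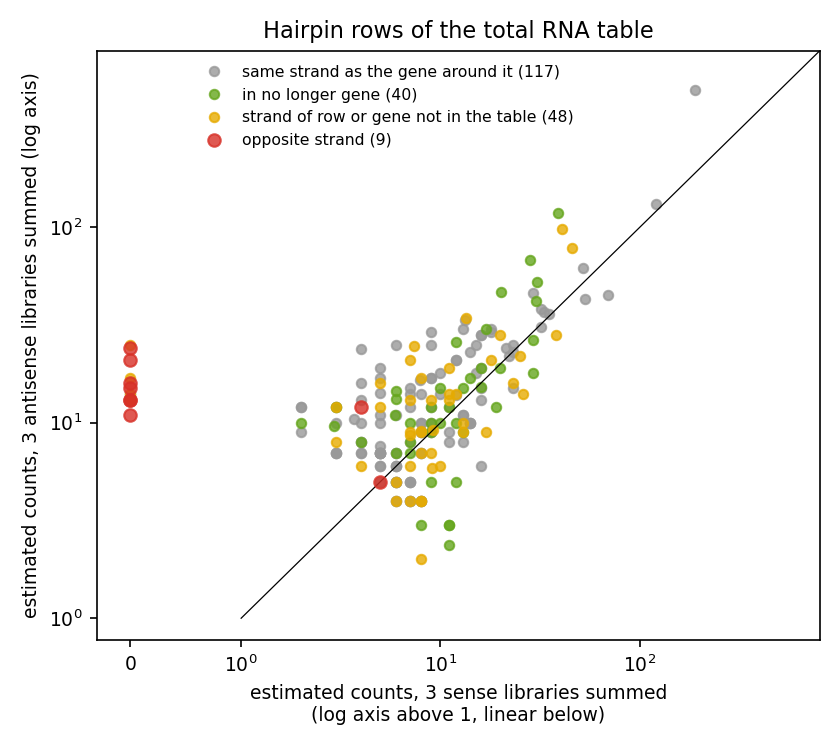
Each point is 1 of the hairpin rows in a class of strand, by its estimated count summed over 3 sense (horizontal) and 3 antisense (vertical) total RNA libraries, unscaled, on axes that are logarithmic above 1 (the horizontal one linear below). Rows of the other 3 classes scatter around the line of equal counts, with 7 of them at 0 on the sense axis, while 7 of the 9 opposite-strand hairpins lie at 0 on the sense axis.

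Mature miRNAs were measured in the small RNA libraries, which the choice of rows did not use. Of the 1964 miRNA rows there, 381 had a count and 158 were tested, of which 0 passed in either direction (a background of 0%). By edgeR 18 of the 158 had an unadjusted p under 0.05, the smallest adjusted p was 0.280, and DESeq2 also called 0. The 227 rows have 369 mature rows, of which 257 were at 0 and 58 were tested. These rows held 68.3% to 69.5% of each library's miRNA counts. Of the 58, 31 had a positive and 27 a negative log2 fold change, with a median of 0.03 against −0.02 for all 158, and 6 had an unadjusted p under 0.05.

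The most abundant were let-7 and miR-9 rows. The level of let-7c-5p was 260221, 266956 and 167558 CPM of miRNA counts in antisense and 233065, 173482 and 191300 CPM in sense libraries, and the groups overlapped (log2 fold change 0.22, SE 0.206, adjusted p = 0.744). The level of miR-9-5p was 164153, 167105 and 187171 against 122735, 173659 and 165892 CPM (log2 fold change 0.17, SE 0.177, adjusted p = 0.775). The other arm, miR-9-3p, averaged 29476 ± 1384 and 29309 ± 2914 CPM (log2 fold change 0.01).

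The third in level, let-7a-5p, was at 132836, 134464 and 106664 CPM in antisense libraries and 96711, 96439 and 98279 in sense ones. The groups did not overlap, but the row did not pass (log2 fold change 0.36, SE 0.162, adjusted p = 0.402). Also among the 10 most abundant, miR-6538, miR-125b-5p, let-7e-5p and miR-6240 had log2 fold changes of 0.09, −0.02, 0.17 and −0.03. The level of miR-128-3p, a neuronal miRNA with copies in R3hdm1 and Arpp21, was 25079, 27951 and 19573 against 15163, 18613 and 14998 CPM, without overlap (log2 fold change 0.57, SE 0.189, unadjusted p = 0.0106, adjusted p = 0.280).

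The level of miR-98-5p was 6204, 6267 and 7166 CPM in antisense libraries and 3880, 4912 and 5335 in sense ones (log2 fold change 0.47, adjusted p = 0.354). The level of miR-744-5p averaged 803 ± 64.8 and 609 ± 51.7 CPM (log2 fold change 0.40, adjusted p = 0.402). On the lower side, miR-29a-3p, known to increase as neurons mature, averaged 1167 ± 49.8 and 1608 ± 98.7 CPM (log2 fold change −0.46, adjusted p = 0.354). The row with the smallest p, miR-365-3p, had 4, 13 and 11 counts in antisense and 41, 31 and 30 in sense libraries (log2 fold change −1.62, SE 0.420, unadjusted p = 0.00243, adjusted p = 0.280). None of these passed, although the groups did not overlap in any of the 6, as in 15.8% of all miRNA rows tested.

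By seed, all 4 rows with GAGGUAG had positive log2 fold changes, from 0.17 to 0.47, with let-7e-5p at −0.03 on library totals alone. Their sequences are much alike and their counts are not whole numbers (27172.4 for let-7a-5p in antisense replicate 1, for example). Reads may thus have been shared out between them, so their single levels are uncertain and the 4 may not be separate measurements. Their summed level was 419769, 429256 and 292230 CPM in antisense libraries and 352169, 288297 and 309931 in sense ones, so the groups overlapped. The rows with ACCCGUA had log2 fold changes of −0.29 to 0.16. The third shared seed, AGGAGCU of miR-28a-5p and miR-708-5p, had one change of each sign. The 17 tested mature rows of the Dlk1-Dio3 region had 6 positive and 11 negative changes, with a median of −0.17, and 0 passed.

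**Figure D4:**
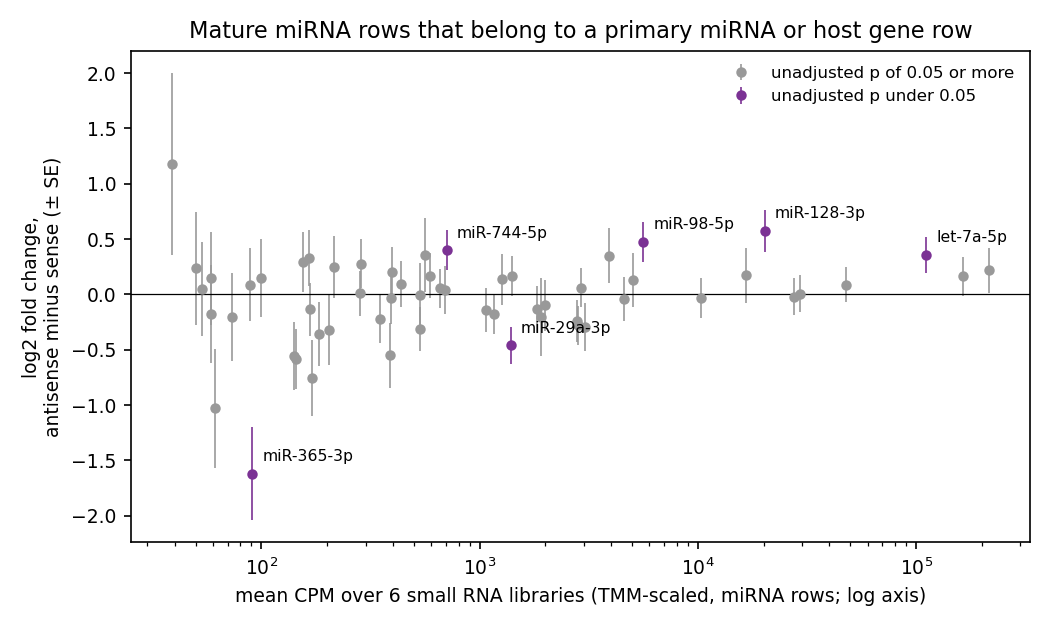
The plot shows the log2 fold change, antisense minus sense, with its standard error, of the 58 tested mature rows against their mean level in CPM over 6 small RNA libraries (logarithmic axis). The 6 named rows had an unadjusted p under 0.05, none passed after adjustment, and the low-count miR-365-3p lies lowest at −1.62.

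Several mature miRNAs of these rows were listed at 0 in every small RNA library, among them miR-22-3p, miR-92a-3p, miR-17-5p and miR-155-5p. For Mir22hg and Mir155hg there are thus no mature values to set beside the host, and for Mir17hg a counted row was miR-92a-1-5p, with a sum of 7.46 and no test. Some of these are abundant miRNAs in most tissues, and whether their reads were assigned to other rows of the table was not tested. The mature rows of oligodendrocyte, myeloid and erythroid miRNAs, 10 in all, were also listed at 0, while oligodendrocyte and microglia marker genes were counted in total RNA.

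Total RNA row and mature row could both be tested for 12 of the rows and 14 mature miRNAs, in 17 pairs. The sign of the log2 fold change was the same in 7 pairs and opposite in 10. Mir100hg, at −0.01, stood beside let-7a-5p at 0.36, miR-100-5p at 0.09 and miR-125b-5p at −0.02. Mir6236, at 1.28 (SE 0.577), and Mir6240, at 0.96 (SE 0.594), stood beside miR-6236 at 0.35 and miR-6240 at −0.03. Both miR-124 hosts, at −0.11 and −0.17, stood beside miR-124-3p at 0.13 (SE 0.246). Mir9-3hg, at −0.15, stood beside miR-9-5p at 0.17. RefSeq gives 3 loci for each arm of miR-9 and 2 for miR-125b-5p, miR-181a-5p, let-7c-5p and miR-344-3p. The locus it gives for let-7a-5p is on chromosome 13, outside Mir100hg, although Mir100hg holds the hairpin of let-7a-2. The row of miR-124-3p is set beside both miR-124 hosts. Such mature rows cannot be assigned to 1 host. The sign counts use miR-124-3p and both miR-9 arms in more than 1 pair.

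Of the 3 rows higher in antisense libraries, only Mir670hg had a tested mature row. Mir670hg was at 0.73 (SE 0.193), and miR-129-5p, which has a second gene copy outside this host, at 0.06 (SE 0.176), with 2591, 3025 and 3320 CPM in antisense libraries and 2919, 3032 and 2627 in sense ones. The level of miR-129-5p overlapped between groups and that of its host did not. The difference between the assays was not tested, since they have separate libraries, totals and scaling.

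**Figure D5:**
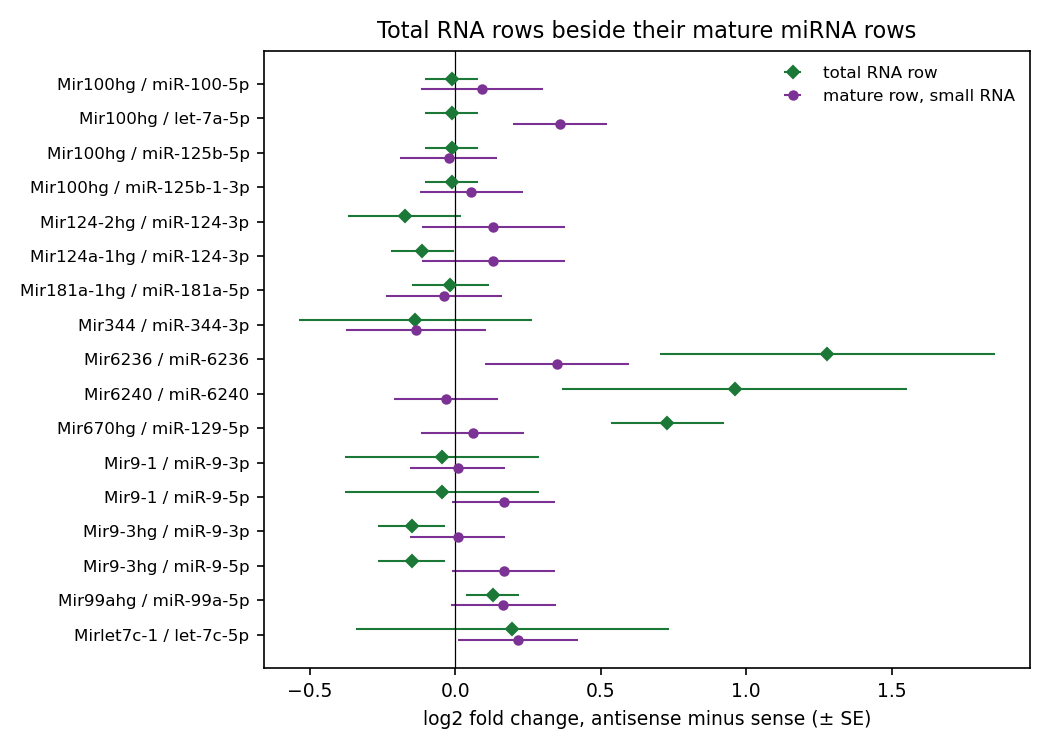
The plot shows the log2 fold change, antisense minus sense, with its standard error, of 12 total RNA rows (diamonds) beside the mature rows they hold or are named for (circles), in 17 pairs. Most values of both assays lie within 1 standard error or so of 0, and Mir670hg at 0.73 lies apart from miR-129-5p at 0.06. Mir6236 at 1.28 and Mir6240 at 0.96, which did not pass, also lie apart from their mature rows at 0.35 and −0.03.

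The genes that make and use miRNAs were listed as well. Of 30 listed, 29 were tested, with 1 higher, 3 lower and 25 not passing, where 18.2% of all genes were higher and 4.35% lower. Their median log2 fold change was −0.14, against −0.01 for all genes. Tarbp2, a Dicer partner, was at 19.7 ± 4.09 CPM in antisense libraries and 11 ± 1.03 in sense ones (log2 fold change 0.84, SE 0.177, adjusted p = 0.00210). Drosha fell by 0.38 (SE 0.094, adjusted p = 0.00678), from 96.8 ± 6.91 CPM in sense to 74.2 ± 4.15 CPM in antisense libraries. Xpo5, exportin 5, fell by 0.38 as well (SE 0.113, adjusted p = 0.0241). The third lower gene was Adar, an RNA editing enzyme. On library totals alone the log2 fold changes of Drosha, Xpo5 and Adar were 0.33, 0.35 and 0.43, and none of the 3 passed. On that scaling 21 of the 29 were higher and 0 lower, where 62.8% of all genes were higher and 0.314% lower.

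Host genes with other names were listed too, 44 genes known to hold a miRNA. Of the 42 tested, 4 were higher, 3 lower, and 35 passed in neither direction (median log2 fold change −0.11), again beside 18.2% and 4.35% of all genes. On library totals alone 25 were higher and 0 lower, and the 3 lower genes, Dnm1, Slit3 and Ptprn, stood at 0.20, 0.34 and 0.17. Rtl1, an imprinted gene whose opposite strand carries miRNAs, was at 48.2 ± 2.03 CPM in antisense libraries and 0.381 ± 0.115 in sense ones (log2 fold change 6.93, SE 0.219, adjusted p = 7.79e-11). Dnm3os, which lies on the strand opposite to Dnm3 and carries miR-199a-2 and miR-214, was at 47.1 ± 9.06 and 2.22 ± 0.751 CPM (log2 fold change 4.41, SE 0.221, adjusted p = 4.97e-09). Myh6, described above with Mir208a, was the third.

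The authors' deposited table, which gives sense minus antisense, lists all 227 rows with an adjusted p. Of these, 7 are higher in antisense at an adjusted p under 0.05 in the authors' deposited table and 0 lower, where 13.8% of all listed rows are higher. These are the 3 rows above and Mir1961, Mir28b, Mir378b and Mir6360, each at 0 in all sense libraries. Of the mature rows, the authors' deposited table lists 109, with a smallest adjusted p of 0.375.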

How the data were processed

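Per the submitters' processing notes, Salmon, DESeq and GRCm38 were used, with no versions; the sources used here name no index, kit or setting for strand. The authors deposited estimated counts per gene symbol (total RNA) and per miRNA or transcript (small RNA). Comparison tables by the authors hold the mean signal after normalisation, log2 fold change, test score and p-values per row, and were used only side by side.

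Estimated counts were rounded. Rows kept by filterByExpr (minimum count 10) were fitted with edgeR 4.0.16 (R 4.3.3, TMM, quasi-likelihood F test, two-sided, antisense minus sense, Benjamini-Hochberg), for small RNA on miRNA rows alone. CPM uses the TMM-effective library size, and the SE is the log2 fold change over the square root of F. A group at 0 was set to a floor of 3 counts over the group, which covers counting error only. Alternatives used DESeq2 1.42.0, other filters and scalings, a replicate block and each library left out. The steps were tested on simulated data.

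Positions, strands and sequences are RefSeq's (GRCm38.p6), and 225 of 227 rows had a position. A longer gene is one spanning over 200 bases. In the classes over every row of the table, it need not be longer than the row it overlaps. Counts count as whole within 0.01. Named rows were the 12 most abundant, those passing, all hosts, the 5 highest at 0 in one group, and the 10 most abundant mature rows, with up to 3 genes by p from each list. Mir3069, Mir5098, Mir466i, Mir9-1, Mir1b, Mir208a, Mir496b, Mir599, the other opposite-strand rows, the mature rows with an unadjusted p under 0.05, those listed at 0, miR-92a-1-5p, Adar, Dnm1, Slit3 and Ptprn were chosen after their values were seen. So were Mir6240 and the hairpins inside Rtl1. Rows and lists were chosen with earlier results of these data known. One gene around a hairpin is not reported here.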

Additional observations from a re-analysis of the deposited data

How the results depend on the processing

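Counts of rows higher in antisense libraries depended on the filter and the scaling. Against 3 as reported, 7 rows passed by DESeq2 (5 of them at 0 in all sense libraries), 15 with no filter on low counts (13 at 0 in sense, where 14.3% of all genes were higher) and 17 on library totals alone (62.8% of all genes). A minimum count of 50 gave 2, Mir133a-1hg being too low to be tested. Among the rows in no longer gene, 1 of the 14 tested was higher in the fit as reported. Leaving out 1 library gave 3 to 4, and a replicate block gave 3. Same-numbered libraries did not deviate together (r of −0.06 to 0.05 in total RNA and −0.22 to 0.03 in small RNA). With 3 libraries per group, this cannot show whether same-numbered libraries share a culture, which the labels leave unsaid. Among all miRNA rows, no filter gave 1 higher and 5 lower, and leaving out 1 library 0 to 2 lower. Among the mature rows of the 227, no filter gave 1 lower, miR-365-3p (−1.65, adjusted p = 0.0113).

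Log2 fold changes near 0 changed sign. On library totals alone, Mir100hg was at 0.67, Mir124a-1hg 0.59, Mir9-3hg 0.53, Mir181a-1hg 0.68, Mir17hg 0.58, Mir124-2hg 0.52, Mir22hg 0.71, Mir3093 0.53, Mir155hg 0.41, miR-9-5p −0.011, miR-6538 −0.093, miR-9-3p −0.17, let-7e-5p −0.034, miR-100-5p −0.083, miR-125b-1-3p −0.13, miR-99a-5p −0.018, miR-124-3p −0.030 and miR-129-5p −0.12. With a minimum count of 50, Mir100hg was at 0.025, Mir181a-1hg 0.020, Mir22hg 0.036, miR-9-3p −0.078, miR-125b-1-3p −0.032 and miR-129-5p −0.033. With Gas5 left out, Mir100hg was at 0.0067, Mir181a-1hg 0.0030 and Mir22hg 0.020. With totals over all small RNA rows, miR-9-3p was at −0.090, miR-125b-1-3p −0.041 and miR-129-5p −0.033. The cause was not tested.

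Leaving out 1 library moved Mir100hg from −0.068 to 0.0587, Mir181a-1hg from −0.123 to 0.0519, Mir22hg from −0.124 to 0.0911, Mir3093 from −0.329 to 0.0546, miR-6538 from −0.000323 to 0.167, miR-9-3p from −0.0559 to 0.0602, miR-125b-5p from −0.132 to 0.0697, let-7e-5p from −0.0162 to 0.457, miR-6240 from −0.138 to 0.049, miR-100-5p from −0.0725 to 0.242, miR-124-3p from −0.129 to 0.283, miR-181a-5p from −0.166 to 0.0615 and miR-129-5p from −0.0143 to 0.0987. Mir5098 passed without sense replicate 1 and Mir690 without sense replicate 3. Low counts limit the hairpin rows: 198 of 227 had too few for the test.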
